A study of Mus musculus with 59 samples.

Results

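The heat shock proteins and their co-chaperones were followed here as 37 genes, chosen by symbol from 57180 gene rows: the cytosolic Hsp70 and Hsp90 families, the Hsp110 exchange factors, the J-domain (Dnaj) proteins, the small heat shock proteins with Bag3, the Hsp90 co-chaperones, the chaperones of the endoplasmic reticulum (ER) and of mitochondria, and the transcription factor Hsf1. RNA came from cortex and hippocampus of 30 male mice. All 37 genes had enough reads to be tested in both tissues.

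Chaperones bind unfolded stretches of other proteins and help them to fold, to be refolded after damage or to be broken down. Hsp70 proteins work in cycles that J-domain proteins start by bringing substrate and that exchange factors such as the Hsp110 proteins end by releasing the bound nucleotide. Hsp90 proteins take over later steps for kinases and steroid hormone receptors with a set of co-chaperones. Under heat or other proteotoxic stress, Hsf1 binds heat shock elements, arrays of the letters GAA in alternating orientation, and switches on Hspa1a, Hspa1b, Dnajb1, Hsph1 and others. Stress in the ER acts through other factors and another promoter element on Hspa5, Hsp90b1, Dnajb11 and Hyou1. Neurons of the adult brain express the constitutive forms at high levels and are known for a weak induction of Hsp70 compared with glia.

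The study set out genotypes at Mrpl40, which encodes a protein of the mitochondrial ribosome, and Slc25a1, which encodes the mitochondrial citrate carrier. The animals were labelled wild type (Mrpl40 +/+,Slc25a1 +/+; 9 cortex and 8 hippocampus libraries), Slc25a1 heterozygous (Mrpl40 +/+,Slc25a1 -/+; 7 and 7), Mrpl40 heterozygous (Mrpl40 -/+,Slc25a1 +/+; 7 and 7) or doubly heterozygous (Mrpl40 -/+,Slc25a1 -/+; 7 and 7). No treatment is named. The age, the strain and the nature of the mutant alleles were not stated in the labels or the design text. Of the 30 animals, 29 gave both tissues, and each animal is a separate sample, so the spread between libraries of a group includes the spread between animals. Libraries held between 21443017 and 32120906 counts.

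Slc25a1 itself went against the label in 6 animals, in both tissues alike. In cortex its level ranged from 10.8 to 26.2 CPM (counts scaled by library size) with no library between 13.0 and 20.9, and wild-type animals 6 and 7, Slc25a1 heterozygous animals 3 and 4 and doubly heterozygous animals 5 and 6 lay on the side of the gap opposite to their label. Mrpl40 gave no check: it ranged from 15.3 to 19.5 CPM in cortex of the labelled Mrpl40 heterozygotes and from 16.1 to 20.7 CPM in the labelled wild types, and its log2 difference was -0.04 ± 0.0609 (SE). Genotypes are therefore given as labelled, and the genotype counts are also given without the 6 animals. The tissues matched their names: 7 of 8 hippocampal markers were higher in hippocampus and 8 of 8 neocortical markers higher in cortex. In hippocampus, Slc25a1 heterozygote 3 carried 582 CPM of summed cerebellar and thalamic markers (median of all hippocampus libraries 58.4), and Mrpl40 heterozygote 5 and double heterozygote 6 carried 97.1 and 99.5 CPM of choroid plexus and ependymal markers (median 34.9).

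Promoters of some of the genes compared below, all of which hold a match, are shown first, since heat shock and ER stress act on different elements. RefSeq windows on GRCm38.p6, from 250 bases before to 50 bases after the start of transcription, were found for 29 of the 37 genes, and Hspa8, Hspa9, Hsp90aa1, Hsp90ab1, Cryab, Hsf1, St13 and Hyou1 had none in the table. A heat shock element of 3 units (GAA, TTC and GAA with any 2 bases between units, on either strand) was present in 5 of the 29 (17.2%: Hspd1, Hspe1, Dnajb6, Hsph1 and Chordc1), against 0.662% of 27025 genes. The shorter GAANNTTC, which is part of it, was present in 12 of 29 (41.4%), against 9.04% of all genes. Dnajb1, Fkbp5 and Hspa2 held neither match in any window and are not printed. These are matches of letters and were not tested as binding sites. The sequences below run 5′ to 3′ on the strand of the gene, with the matched letters in capitals. Hspa1a and Hspa1b are the paired inducible Hsp70 genes and carry the 2-unit match. Hsph1 and Chordc1 carry the 3-unit match close to the start of transcription, and Hspe1 carries overlapping 3-unit matches on both strands in the stretch that it shares with Hspd1, the gene read in the opposite direction.
Hspa1a, chr17:34972137-34972336, minus strand: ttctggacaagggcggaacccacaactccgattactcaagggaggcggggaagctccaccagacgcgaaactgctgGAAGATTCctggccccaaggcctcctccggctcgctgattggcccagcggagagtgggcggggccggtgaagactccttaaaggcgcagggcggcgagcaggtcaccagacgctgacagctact
Hspa1b, chr17:34959219-34959418, minus strand: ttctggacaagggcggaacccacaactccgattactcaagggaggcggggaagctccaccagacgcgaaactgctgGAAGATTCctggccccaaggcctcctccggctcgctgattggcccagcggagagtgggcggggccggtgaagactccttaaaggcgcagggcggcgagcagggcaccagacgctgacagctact
Hsph1, chr5:149636288-149636435, minus strand: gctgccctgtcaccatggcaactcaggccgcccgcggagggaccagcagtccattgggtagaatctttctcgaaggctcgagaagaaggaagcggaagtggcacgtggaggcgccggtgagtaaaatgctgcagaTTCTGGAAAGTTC
Chordc1, chr9:18292147-18292286, plus strand: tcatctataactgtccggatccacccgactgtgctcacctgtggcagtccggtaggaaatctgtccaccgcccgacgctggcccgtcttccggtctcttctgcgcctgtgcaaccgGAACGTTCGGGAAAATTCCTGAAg
Hspe1, chr1:55087988-55088167, plus strand: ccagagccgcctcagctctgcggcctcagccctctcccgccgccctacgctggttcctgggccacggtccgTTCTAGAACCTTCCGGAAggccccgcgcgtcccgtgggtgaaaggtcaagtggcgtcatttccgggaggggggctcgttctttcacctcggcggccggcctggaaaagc
The Hspa1a and Hspa1b stretches differ at 1 of the 200 bases printed and at 4 of the 300 bases of the whole window. The transcripts are 99.2% identical over 2201 bases as well. Reads could be split between the pair or left out in the counting, so the values of both genes are uncertain. The starts of Hspd1 and Hspe1 lie 216 bases apart. Chordc1 shows 3 overlapping matches in 23 bases, between positions -4 and 19 counted from the start of transcription.

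Among the 37 genes, expression in both tissues was dominated by cytosolic Hsp90 and the constitutive Hsp70. Per kilobase of exon, which allows genes to be compared, the order was led in both tissues by Hsp90ab1, the constitutive cytosolic Hsp90 (532 CPM per kb in cortex and 613 in hippocampus), then Hspa8, the constitutive Hsp70 (297 and 268), and Hsp90aa1, the inducible cytosolic Hsp90 (228 and 193). Stip1, which bridges Hsp70 and Hsp90, came next at 86.9 and 80.4 CPM per kb, and the ER Hsp90 protein Hsp90b1 followed at 77.7 and 75.6. The libraries of the third and the fourth place did not overlap in either tissue, while those of neighbours further down, such as Hspd1 and Hspa9 in cortex (57.0 ± 3.00 and 56.0 ± 3.07 CPM per kb, SD over 30 libraries), overlapped. Of the inducible genes, Hspb1, Hspa1a, Bag3 and Hspa1b were among the lowest of the list, while Hsph1 was at place 11 in both tissues. Hspb1, a small heat shock protein, had 1.65 and 1.53 CPM per kb, Hspa1a 2.09 and 1.91, Bag3, which links Hsp70 to small heat shock proteins and autophagy, 2.60 and 3.75, and Hspa1b 6.22 and 6.90. Hspa2, an Hsp70 known from the testis and also made in brain, was at place 25 in cortex and 13 in hippocampus, Dnajb1 at 19 and 27, and Dnajb2 at 17 and 24. Of the 37 genes, 12 have at least 1 other annotated transcript with at least 95% identity over 200 bases or more. Among them are 6 for Hspa8, 6 for Dnajb6, 4 for Dnaja1, 3 for Hsp90aa1 and 2 each for Hspb1, Hspa1a and Hspa1b. The levels of all 12 genes are uncertain to that extent.

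The question of how chaperone levels differ between brain regions was read from the 29 animals with both tissues, with the animal as a block. Relative to cortex, 11 of 37 genes were higher and 14 were lower in hippocampus (67.6% of the genes; edgeR quasi-likelihood test, Benjamini-Hochberg adjusted p under 0.05 over all 22779 genes tested). The background is wide: 75.6% of all genes tested passed the same test, 38.7% higher and 36.9% lower, so the share of chaperones that passed is not above that of genes at large. The largest differences were those of the co-chaperone Fkbp5 (log2 difference 1.61), Hspa2 (1.10), the small heat shock protein Hspb8 (0.88) and the J-domain genes Dnajb1 (-0.77) and Dnajb2 (-0.65). For these 5 genes the 2 tissues did not overlap in any library, which held for 14% of all genes tested. In bulk tissue, fewer cells of a type and less RNA per cell cannot be told apart. All values by library are on 1 scale for both tissues.

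**Figure D1:**
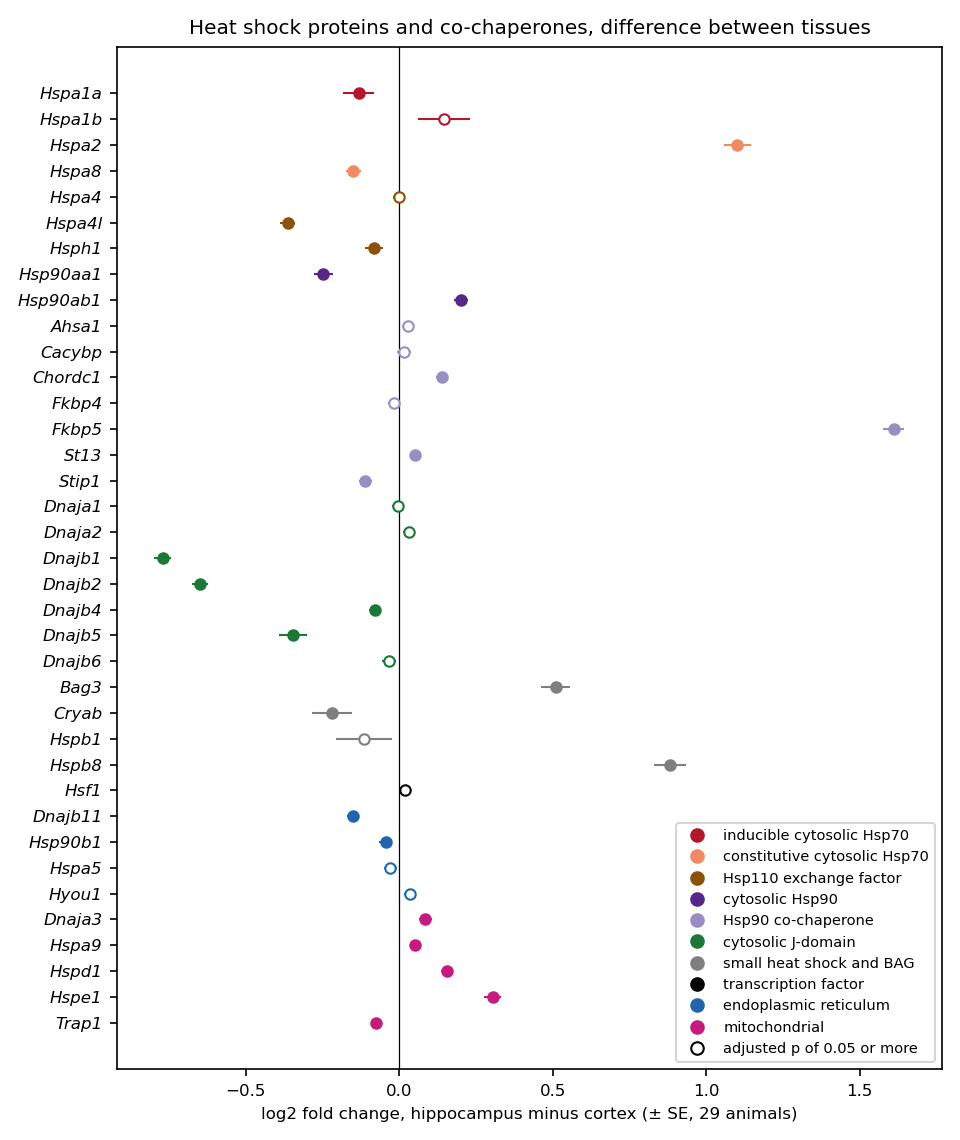
Log2 difference of hippocampus minus cortex (x axis) for each of the 37 genes (y axis, coloured by role), with bars of 1 SE from the fit over 29 animals. Fkbp5 at 1.61 and Hspa2 at 1.10 lie farthest to the right and Dnajb1 at -0.77 farthest to the left, and open circles mark the 12 genes that did not pass the test.

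Fkbp5, an Hsp90 co-chaperone that lowers the hormone affinity of the glucocorticoid receptor and is itself induced by glucocorticoids, ranged from 20.3 to 33.8 CPM in cortex (median 25.4) and from 53.7 to 96.1 CPM in hippocampus (median 80.1). It was higher in hippocampus in 29 of 29 animals, by 1.61 ± 0.0345 on the log2 scale (SE, adjusted p = 3.55e-30, edgeR). The lowest hippocampus library, wild-type animal 8, was still above every cortex library. A list of 14 other glucocorticoid-responsive genes did not move in 1 direction: 8 were higher and 5 lower in hippocampus, among them Ddit4 (log2 difference 1.25), Cdkn1a (-2.30) and Per1 (-1.08). Among the other genes grouped here with the Hsp90 co-chaperones, Chordc1 (log2 difference 0.14, 28 of 29 animals) and St13 (0.05, 24 of 29) were higher in hippocampus. Stip1 (-0.11) was lower. Ahsa1, which stimulates the ATPase of Hsp90, Fkbp4 and Cacybp did not pass, with log2 differences of 0.03, -0.02 and 0.01.

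The cytosolic Hsp70 and Hsp90 genes split by family member. Hspa2 ranged from 34.8 to 57.8 CPM in cortex (median 42.2) and from 68.3 to 103 CPM in hippocampus (median 93.2), a log2 difference of 1.10 ± 0.044 (SE, adjusted p = 1.08e-20, edgeR) with the same direction in 29 of 29 animals. Hspa8, its constitutive relative, went the other way by -0.15 ± 0.0256, with means of 1278 ± 92.3 CPM in cortex (SD, n = 30) and 1153 ± 113 CPM in hippocampus (SD, n = 29), and those libraries overlapped. The Hsp90 pair also moved apart. Hsp90ab1 was higher in hippocampus (1840 ± 150 against 1595 ± 83.8 CPM, 28 of 29 animals), and Hsp90aa1 was lower (760 ± 93.8 against 895 ± 51 CPM, 27 of 29 animals, adjusted p = 3.06e-09, edgeR). Hspa1a was slightly lower in hippocampus at 5.67 ± 1.11 against 6.21 ± 1.18 CPM (adjusted p = 0.0152, edgeR), and its near copy Hspa1b did not pass at 19.3 ± 5.63 against 17.4 ± 4.35 CPM (adjusted p = 0.121, edgeR). Because reads could be split between the pair, the opposite signs are uncertain. Of the exchange factors, Hspa4l was lower in hippocampus in 29 of 29 animals (median 138 against 178 CPM, log2 difference -0.36), Hsph1 was lower by a small margin (-0.08), and Hspa4 had a log2 difference of -0.0024 ± 0.0198.

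Of the 7 cytosolic J-domain genes, 4 were lower in hippocampus and none was higher. Of all genes tested, 36.9% were lower and 38.7% higher. Dnajb1, the main partner of inducible Hsp70, ranged from 61.5 to 84.0 CPM in cortex (median 69.9) and from 36.5 to 52.4 CPM in hippocampus (median 40.5). The libraries did not overlap, and the log2 difference was -0.77 ± 0.0274 (SE, adjusted p = 2.24e-25, edgeR). Dnajb2, a neuronal J-domain protein that delivers substrates to the proteasome, ranged from 97.3 to 115 CPM in cortex (median 106) and from 59.6 to 83.7 CPM in hippocampus (median 66.8). Dnajb5 was lower in 25 of 29 animals, with a log2 difference of -0.35 ± 0.0448, and its cortex libraries were widely spread, from 154 to 328 CPM. Dnajb4 was lower by a small margin (-0.08), while Dnaja1, Dnaja2 and Dnajb6 did not pass, with log2 differences between -0.03 and 0.03.

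The small heat shock proteins followed no common direction. Hspb8, which works with Bag3 in clearing aggregates, ranged from 6.19 to 12.5 CPM in cortex (median 9.09) and from 12.7 to 20.6 CPM in hippocampus (median 16.6), a log2 difference of 0.88 ± 0.0517. Bag3 was higher too, at 9.60 ± 1.42 against 6.66 ± 0.677 CPM, in 29 of 29 animals (log2 difference 0.51 ± 0.047). Cryab, the αB-crystallin of oligodendrocytes and astrocytes, was lower in hippocampus at 45.3 ± 8.35 against 52.4 ± 9.59 CPM (22 of 29 animals, adjusted p = 0.00312, edgeR), and Hspb1 did not pass. Cell type markers differed between the tissues as well: 8 of 10 neuron markers were lower in hippocampus and none higher (summed level 5984 to 9907 CPM against 8978 to 10795), while 7 of 10 oligodendrocyte, 7 of 10 microglia and 5 of 10 astrocyte markers were higher. Of the astrocyte markers, 2 were lower, Aldh1l1 (-0.51) and Fgfr3 (-0.07). Their part in the tissue differences of the chaperones was not tested.

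Of all 5 mitochondrial genes, 4 were higher in hippocampus, where 38.7% of all genes tested were higher. Both genes of the mitochondrial pair with a shared promoter stretch were among them. The part of the shared stretch in this was not tested. Hspe1, the small co-chaperonin that caps Hspd1, ranged from 22.8 to 33.0 CPM in cortex (median 26.9) and from 29.3 to 40.2 CPM in hippocampus (median 32.7), higher in 29 of 29 animals with a log2 difference of 0.30 ± 0.0268. Hspd1, the chaperonin itself, was higher in 28 of 29 animals at 168 ± 10.4 against 151 ± 7.93 CPM (log2 difference 0.15 ± 0.0187). Hspa9, the mitochondrial Hsp70, and its partner Dnaja3 were higher by small margins (0.05 and 0.08), and the mitochondrial Hsp90 gene Trap1 was lower (-0.08). Of 14 other mitochondrial chaperones and proteases, 5 were higher and 3 lower. The ER members hardly differed between tissues: Dnajb11, the J-domain partner of Hspa5, was lower (-0.15 ± 0.0187), Hsp90b1 was lower at the edge of the threshold (-0.04, adjusted p = 0.0455, edgeR), and Hspa5 (279 ± 47.6 against 283 ± 37 CPM) and Hyou1 did not pass. Hsf1 did not pass either, at 52.6 ± 2.82 against 51.8 ± 2.12 CPM.

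Beyond the 37 genes, the other chaperones split in the same mixed way, where 38.7% of all genes tested were higher and 36.9% lower. Of 45 other cytosolic chaperones and co-chaperones, 15 were higher and 25 lower in hippocampus, with Dnajc21 (log2 difference -1.48) and Sgtb (-1.02) among the lower and Hspb11 (0.73) and Bag4 (0.62) among the higher. The cytosolic chaperonin TRiC, which folds actin and tubulin, had a common direction: all 8 of its subunit genes were higher in hippocampus, Cct5 by 0.58 and Cct2 by 0.33, while of the 6 prefoldin genes Vbp1 (0.21) was higher and the other 5, such as Pfdn2 (-0.35) and Pfdn5 (-0.20), were lower. Of 18 other ER chaperones and folding enzymes, 9 were higher and 7 lower, among them the unfolded-protein response genes Herpud1 (-0.50) and Xbp1 (-0.49). Of 7 other heat shock factors and regulators, 3 were higher and 3 lower, with Hsf4 at -1.40 and Hsf2 at 0.23.

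**Figure D2:**
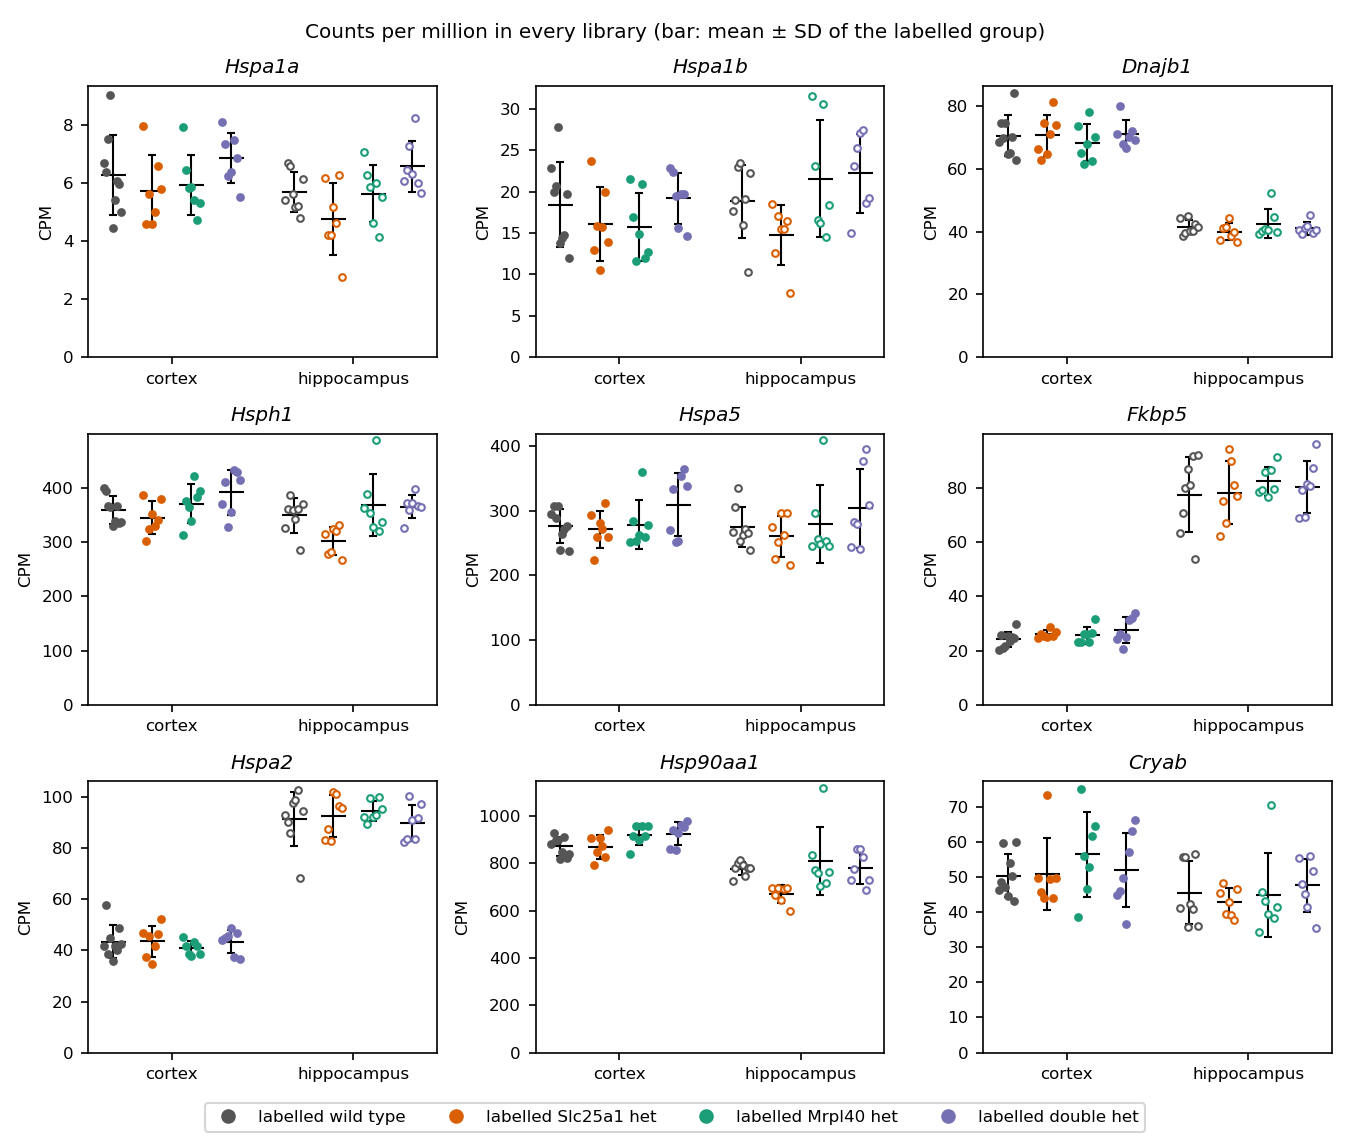
Level in CPM (y axis) of 9 chaperone genes in every library, by tissue and labelled genotype (x axis), from 0 CPM upward, filled points for cortex and open points for hippocampus, with a line at the group mean and error bars of 1 SD. Hspa2 and Fkbp5 separate the tissues in all libraries, Dnajb1 separates them in the other direction, and hippocampus library 5 of the Mrpl40 heterozygotes stands above its group for Hsph1, Hspa5, Hsp90aa1 and Cryab.

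Genotype was compared within each tissue, with all 4 labelled genotypes in 1 fit. No chaperone gene passed the test in any of the 12 genotype comparisons, 6 in each tissue including the interaction of both alleles, or in the 3 comparisons of a genotype effect between the tissues. Few genes of any kind did. In cortex, the share of all 20394 genes that passed was 0% for the Slc25a1 heterozygotes against wild type, 0.0294% for the Mrpl40 heterozygotes, 0.0686% for the double heterozygotes, 0.0588% for double against Slc25a1 heterozygotes, 0.0049% for double against Mrpl40 heterozygotes and 0% for the interaction. In hippocampus the shares of 20162 genes were 0%, 0.00496%, 0.00992%, 0%, 0% and 0% in the same order, and for the tissue difference of the genotype effects they were 0%, 0% and 0.022% of 22779. DESeq2 called no chaperone gene in any of these comparisons either. The comparisons share their control groups, so their values stand side by side below and are not independent of each other. The chaperone genes of a comparison are not independent of each other either. With the labelled genotype removed, the median r between pairs of them was 0.31 in cortex and 0.36 in hippocampus. A shared shift could mark many at once, so counts at an unadjusted p below are a description. Their excess over the share of all genes was not tested.

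**Figure D3:**
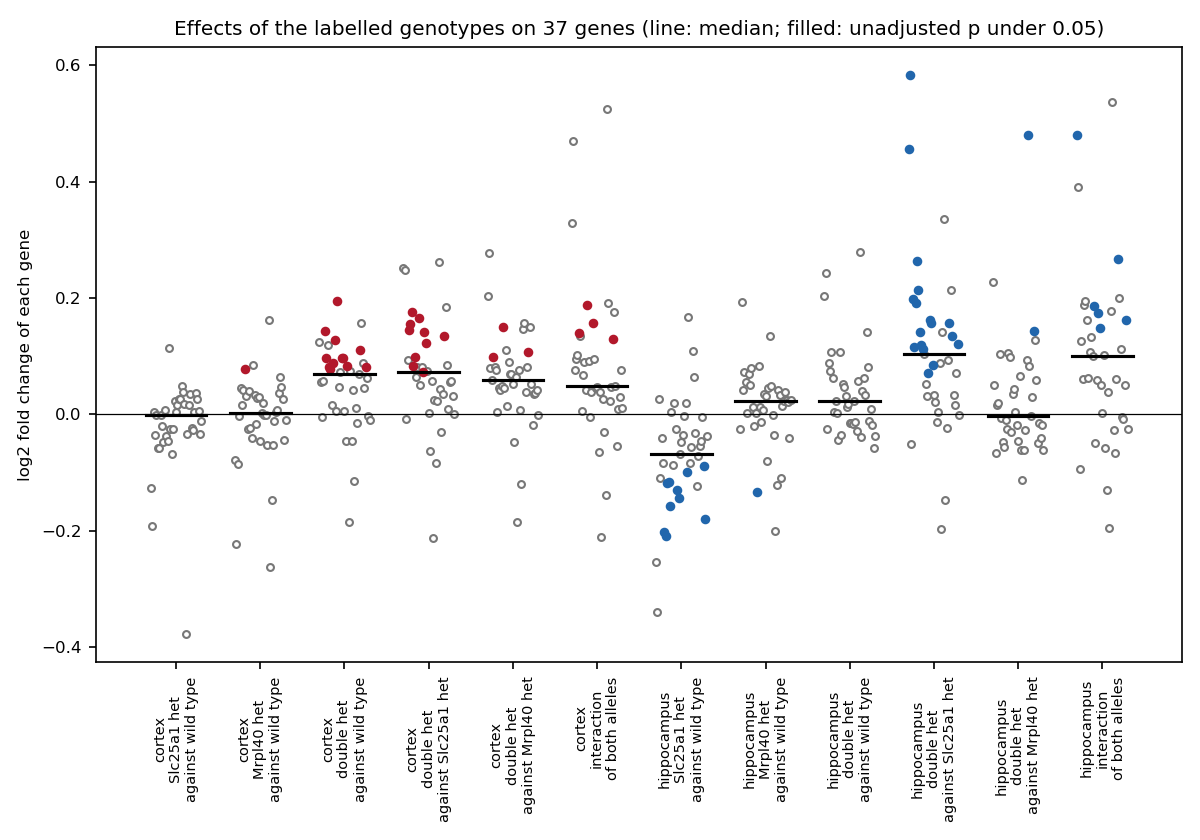
Log2 difference (y axis) of the 37 genes, 1 point each, in the 12 genotype comparisons of cortex and hippocampus (x axis), with a line at the median and filled points where the unadjusted p was under 0.05. The filled points lie above 0 in double against wild type of cortex and in double against Slc25a1 heterozygotes of both tissues, and below 0 in the Slc25a1 heterozygotes of hippocampus, and none passed the adjusted threshold.

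In cortex of the labelled double heterozygotes, most chaperones were somewhat above the wild type. The log2 difference was positive for 29 of 37 genes, with a median of 0.07 against -0.0034 over all genes, and 12 genes had an unadjusted p under 0.05, all of them higher (32.4%, where 10.9% of all genes had such a p and 4.94% were higher). The smallest p belonged to Hspa4, an Hsp110 exchange factor: wild-type libraries ranged from 251 to 306 CPM with a median of 265, and double heterozygotes from 280.2 to 316 CPM with a median of 306. The ranges overlapped, and the log2 difference of 0.14 ± 0.042 had an unadjusted p of 0.00154 and an adjusted p of 0.168 (edgeR). Next were Hsp90b1, at 334 ± 18.8 CPM (SD, n = 7) against 308 ± 16.0 CPM (n = 9), with an adjusted p of 0.281 (edgeR), and Dnajb4, with a log2 difference of 0.08 and an adjusted p of 0.315. By role, the Hsp110 factors (median log2 difference 0.12), the ER chaperones (0.10) and the Hsp90 co-chaperones (0.07) were positive for every member, and the small heat shock proteins with Bag3 were not (-0.02, positive for 2 of 4). Without the 6 animals that went against their label, 4 genes in place of 12 had an unadjusted p under 0.05 and 26 of 37 were positive. Cell type markers differed alongside: summed neuron markers had a median of 10175 CPM (9718 to 10490) against 9598 CPM in wild type (8978 to 10110), with 8 of 10 log2 differences positive. Summed microglia markers had 354 CPM (332 to 379) against 384 CPM (353 to 439), with 1 of 10 positive and 1 past the test, C1qa, which was lower. All 10 astrocyte markers had a negative difference (median -0.08). In cortex of the Mrpl40 heterozygotes, summed neuron markers had a median of 10150 CPM (9747 to 10795) and microglia markers 361 CPM (323 to 384). There, 19 of 37 chaperones were positive against wild type, with a median log2 difference of 0.002. The part of the markers in the positive chaperone values of the double heterozygotes was not tested.

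The same group stood in a like position against the other labelled heterozygotes of cortex. Against Slc25a1 heterozygotes, 32 of 37 genes were positive and 10 had an unadjusted p under 0.05, all higher (27%, against 9.92% of all genes, 5.08% higher). The smallest p was that of Hspa4l, with 181 to 212 CPM in double and 158 to 189 CPM in Slc25a1 heterozygotes (log2 difference 0.15 ± 0.0443, adjusted p = 0.185, edgeR), followed by Hspa4 (0.15, adjusted p = 0.217) and Hsp90b1 (0.13, adjusted p = 0.219). Without the 6 animals, 4 in place of 10 had an unadjusted p under 0.05. Against Mrpl40 heterozygotes, 32 of 37 were positive and 3 had an unadjusted p under 0.05 (8.11%, against 6.94% of all genes): Hsp90b1 (0.11, adjusted p = 0.603), Chordc1 (0.15) and Hspa4 (0.10). None of the 37 had such a p without the 6 animals. The interaction of both alleles had 4 such genes (10.8%, against 5.35%), namely Hspa4l, Hsp90b1, Chordc1 and Stip1, each with an adjusted p of 0.895 (edgeR), and 1 without the 6 animals.

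In cortex of the single heterozygotes there was less to see. No gene of the 37 had an unadjusted p under 0.05 in Slc25a1 heterozygotes against wild type (3.17% of all genes had), where the smallest values were those of Hspb1 (log2 difference -0.38, adjusted p = 1), Hspa4l (-0.06) and Stip1 (-0.07). In Mrpl40 heterozygotes 1 gene had (2.7%, against 6.94% of all genes): Hsp90aa1, at 920 ± 43.7 CPM (SD, n = 7) against 871 ± 40.7 CPM (n = 9), with a log2 difference of 0.08 and an adjusted p of 0.705 (edgeR). Dnaja3 (0.06) and Hsf1 (-0.05) followed. None of the 37 genes had such a p in either comparison without the 6 animals.

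In hippocampus of the labelled Slc25a1 heterozygotes, most chaperones were somewhat below the wild type. Against wild type, 30 of 37 log2 differences were negative, with a median of -0.07 against 0.00 over all genes, and 10 genes had an unadjusted p under 0.05, all lower (27%, where 7.77% of all genes had such a p and 4.05% were lower). The 10 were Hspe1, Dnaja1, Cacybp, Hsp90aa1, Hsph1, Ahsa1, Hsp90ab1, Stip1, Dnajb6 and Hspd1. Hspe1 ranged from 30.3 to 39.3 CPM in wild type (median 35.3) and from 29.3 to 32.5 CPM in the Slc25a1 heterozygotes (median 30.8), with a log2 difference of -0.18 ± 0.052 and an adjusted p of 0.457 (edgeR). Dnaja1, a partner of Hspa8, had 171 to 188 against 154 to 171 CPM, and an adjusted p of 0.489 (edgeR). Cacybp, a co-chaperone in ubiquitin-dependent turnover, had 67.8 to 78.0 against 59.5 to 66.4 CPM (adjusted p = 0.5, edgeR). Hsp90aa1 had 727 to 813 against 596 to 696 CPM (log2 difference -0.21, adjusted p = 0.5, edgeR). The ranges of Cacybp and Hsp90aa1 did not overlap. The share of all genes for which this held was not computed, so nothing is read from it.

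Neuron markers lay the same way in this group. Their summed level in hippocampus ranged from 5984 to 7038 CPM in the Slc25a1 heterozygotes and from 6919 to 8249 CPM in the wild types, 8 of 10 neuron markers had a negative log2 difference (median -0.14), and 10 of 10 astrocyte markers had a positive one (median 0.09). None of these markers passed the test. Hsp90aa1 followed the mean log2 level of the neuron markers closely across hippocampus libraries (r = 0.91, 29 libraries). Mrpl40 heterozygote 5 was the highest hippocampus library for Hsp90aa1 (1120 CPM, nearest of its group 835) and for summed neuron markers (9907 CPM). The r without it was not computed. The part of the markers in the negative chaperone values was not tested. Without the 6 animals, 5 in place of 10 chaperone genes had an unadjusted p under 0.05 with 28 of 37 negative. Without the 3 libraries high in cerebellar or choroid plexus markers there were 13, and without wild-type library 8, which was the lowest of its group for Hsph1, Hspa8, Hspa1a and Hspa1b, there were 14.

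The widest set of small differences lay between the double and the Slc25a1 heterozygotes of hippocampus. The log2 difference was positive for 31 of 37 genes, with a median of 0.10 against -0.01 over all genes, and 17 genes had an unadjusted p under 0.05, all higher (45.9%, where 9.04% of all genes had such a p and 4.43% were higher). Hsph1 ranged from 267 to 332 CPM in Slc25a1 heterozygotes (median 314) and from 326 to 399 CPM in double heterozygotes (median 367), and had 285 to 387 CPM in wild types and 320 to 489 CPM in Mrpl40 heterozygotes. Its log2 difference between double and Slc25a1 heterozygotes was 0.26 ± 0.0724, with an unadjusted p of 0.000933 and an adjusted p of 0.308 (edgeR). Hspa1a had 2.75 to 6.29 CPM against 5.67 to 8.24 CPM (log2 difference 0.46 ± 0.132, adjusted p = 0.356, edgeR), and the groups overlapped. Hspa1b had 7.78 to 18.5 CPM against 15.0 to 27.5 CPM (log2 difference 0.58 ± 0.202, adjusted p = 0.449). Both inducible Hsp70 genes were thus lowest in the labelled Slc25a1 heterozygotes of hippocampus, at means of 4.77 ± 1.24 and 14.8 ± 3.58 CPM, and highest in the double heterozygotes, at 6.57 ± 0.891 and 22.2 ± 4.77 CPM (SD, n = 7 each), without passing the test over all genes. Neuron markers were positive in 10 of 10 (median 0.19). The 17 chaperone genes are not independent counts, and the part of the neuron markers in their positive values was not tested. Without the 6 animals, 9 in place of 17 genes had an unadjusted p under 0.05. The smallest adjusted p of any chaperone in this comparison, over every alternative tried, was 0.0869, without the 3 libraries high in other markers.

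The other hippocampus comparisons had fewer such genes. Double heterozygotes against wild type gave no gene with an unadjusted p under 0.05 (5.28% of all genes), and the nearest was Chordc1 at 89.5 ± 5.66 against 82.8 ± 5.96 CPM (adjusted p = 0.944, edgeR), then Hspa4 (0.07) and Hspa1a (0.20). Mrpl40 heterozygotes against wild type gave 1 (2.7%, against 8.19%), the co-chaperone Fkbp4 with a log2 difference of -0.13 (adjusted p = 0.59), followed by Dnajb5 and Hsp90b1. Double against Mrpl40 heterozygotes gave 2 (5.41%, against 4.68%), Hspb1 (0.48) and Hsp90b1 (0.14). The interaction gave 6 (16.2%, against 3.39%), led by Hsp90b1 (0.27 ± 0.0919), Hspa1a (0.48 ± 0.185) and Fkbp4 (0.19), each with an adjusted p of 0.999 (edgeR). These counts without the 6 animals were 0 for double heterozygotes against wild type, 1 for Mrpl40 heterozygotes against wild type, 1 for double against Mrpl40 heterozygotes and 3 for the interaction. The effect of the Slc25a1 label differed between the tissues at an unadjusted p under 0.05 for 8 genes, all lower in hippocampus (21.6%, against 5.85% of all genes, 3.05% lower), led by Cacybp (-0.17), Dnajb6 (-0.15) and Hsp90aa1 (-0.22), with adjusted p-values from 0.842 (edgeR). For the effect of the Mrpl40 label there were 2 (5.41%, against 5.59%), Hsp90b1 (-0.12) and Hsf1 (0.10), with Fkbp4 (-0.10) next, and for that of the double heterozygotes 2 (5.41%, against 4.87%), Cacybp (-0.14) and Dnajb4 (-0.09), with Hspa9 (-0.09) next. The counts for the tissue difference without the 6 animals were 5 for the Slc25a1 label, 1 for the Mrpl40 label and 2 for the double heterozygotes. A p above the threshold does not show that the groups were alike: the 95% interval of the double against wild-type difference in hippocampus, for example, reached from -0.05 to 0.45 for Hspa1a.

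Genes differed in how far animals of 1 group lay apart. After the mean of each tissue and labelled genotype was removed, the SD of log2 CPM was largest for Hspb1, which has few reads (0.43 in cortex and 0.38 in hippocampus), and Hspa1b (0.36 and 0.40). Hspa1a had 0.26 and 0.27, while the inducible Dnajb1 had 0.12 and 0.10. Set against genes of like level, Hspa1b was at percentile 98.7 in cortex and 98.4 in hippocampus, Cryab at 98.2 and 95.5, and Hspa5 at 97.6 and 95.8. Dnajb5 was at 99.1 in cortex. The lowest values in cortex were those of Hsf1, Dnajb4, Dnajb2 and St13 (0.06 each), and in hippocampus those of St13 and Dnajb4 (0.05 each).

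Most pairs of chaperone genes had a positive correlation across the libraries of a tissue. Of 666 pairs of the 37 genes, 550 had a positive correlation in cortex and 534 in hippocampus, with a median r of 0.31 over 30 and 0.36 over 29 libraries. These values are a description: the points share their library, its depth and its mix of cells. Pairs of other genes were not computed, so the share of positive pairs cannot be called particular to chaperones. Among the roles with more than 1 pair of genes, the ER group had the highest median r: the 6 pairs of Hspa5, Hsp90b1, Dnajb11 and Hyou1 had a median r of 0.81 in cortex and 0.83 in hippocampus. Hsp90aa1 and Hsp90ab1 had 0.83 in both tissues. Hspa8 and Hsph1 had 0.89 and 0.90, and Hspa1a and Hspa1b had 0.84 and 0.77, where a part of split reads was not tested. The highest pair in cortex joined the cytosolic Hsph1 to the ER gene Hyou1 (0.92). A few genes stood outside this block: Hsf1 had a median r with the other 36 genes of -0.04 in cortex and -0.11 in hippocampus, Bag3 had -0.13 in cortex, and Dnajb5 had -0.02 in hippocampus. The lowest pairs were Fkbp5 with Hspa1b in cortex (-0.50) and Dnajb5 with Hspa4l in hippocampus (-0.70).

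**Figure D4:**
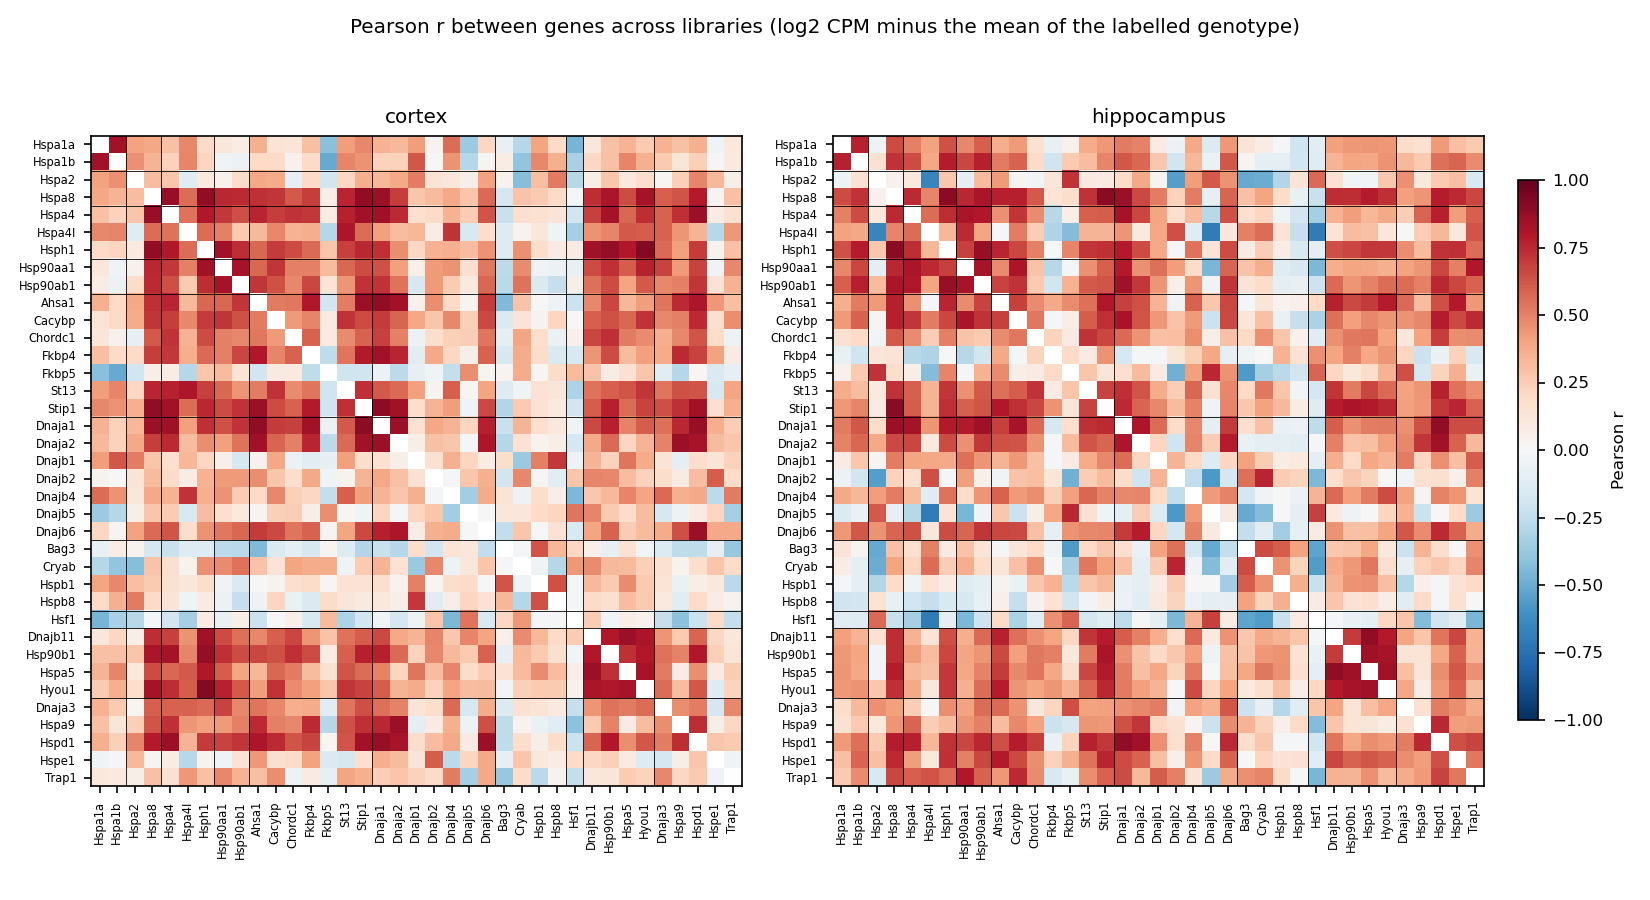
Pearson r of log2 CPM, centred on the labelled genotype, between all pairs of the 37 genes (both axes, in the order of their roles), in cortex (30 libraries) and hippocampus (29 libraries). The colour gives r: the ER genes form a tight square with a median of 0.81 in cortex and 0.83 in hippocampus, and Hsf1 has mostly pale or blue cells in both tissues.

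Some chaperones also followed the markers of a cell type, taken here as the mean centred log2 CPM of each list and not as a sum. Cryab tracked the mean of the oligodendrocyte markers with r = 0.94 in cortex and 0.86 in hippocampus, and Dnajb2 did so in hippocampus (0.82). Hspb8 (0.58 and 0.70), Bag3 (0.61 and 0.52) and Hspb1 (0.59 and 0.40) went with the astrocyte markers. Hsp90aa1 went with the neuron markers (0.67 and 0.91), and so did Hsp90ab1 (0.56 and 0.74). Hspa5 followed the other ER chaperones, with r = 0.92 in cortex and 0.93 in hippocampus, and hardly followed the neuron markers (0.28 and 0.22). These values are also a description, over 30 and 29 libraries. They were not computed without hippocampus library 5 of the Mrpl40 heterozygotes, which stood apart for Hsp90aa1, Hsp90ab1, Cryab, Dnajb2 and Hspa5.

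Likeness to the inducible genes was measured as the r of each gene with the mean of Hspa1a, Hspa1b and Dnajb1. In hippocampus, 10 of the other 34 chaperones lay above 0.55, the level that 5% of all 20162 genes exceeded, led by Hsph1 (0.79), Hspa8 (0.78), Hsp90ab1 (0.78) and Hsp90aa1 (0.69), and their median was 0.45 against -0.01 over all genes. In cortex 7 of 34 lay above the like level of 0.41, with a median of 0.24 against -0.01, and Hsph1 was at 0.23. Dnajb1 itself followed the Hsp70 pair less in hippocampus (0.20) than in cortex (0.56), and that difference was not tested. Without the 3 hippocampus libraries high in other markers, its r there was 0.05. The hippocampus count of 10 was 11 without these libraries, 13 without the 6 animals against their label and 8 without wild-type library 8. Outside the chaperones, the 10 most alike in cortex (30 libraries) included Cacna1c (0.79), Smarca2 (0.78), Ptprk (0.78), Tnfrsf11b (0.77), Klf8 (0.75), Dcaf6 (0.74), Napepld (0.71), Jun (0.71) and Zfhx4 (0.71). In hippocampus (29 libraries) they were Capn1 (0.84), Grb2 (0.83), Epdr1 (0.83), Tuba4a (0.83), Ccdc32 (0.82), Stk25 (0.82), Nt5dc3 (0.81), Mlf2 (0.81), Cops7a (0.81) and Robo1 (0.81), and no gene is in both sets. Neuron markers had a median r with the inducible mean of 0.61 in hippocampus (9 of 10 positive) and 0.08 in cortex (6 of 10 positive). Oligodendrocyte markers had -0.57 in cortex and -0.17 in hippocampus (0 of 10 positive in each). Fibroblast and meningeal markers had 0.43 in cortex (10 of 10 positive) and -0.34 in hippocampus (2 of 10 positive).

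The last question was whether an animal that was high for a chaperone in cortex was also high in hippocampus. Over the 29 animals, after the mean of each labelled genotype was removed, 31 of 37 genes had a positive r between the tissues, with a median of 0.28 against 0.11 over all 19466 genes. Of the 37, 4 genes passed (permutation test, adjusted p under 0.05 over all genes; 2.18% of all genes passed): the ER chaperones Hspa5, Hsp90b1 and Dnajb11, and the Hsp90 co-chaperone Chordc1. Hspa5, also known as BiP, the Hsp70 of the ER and a central sensor of unfolded protein there, had r = 0.85, Spearman's rho = 0.86 and an adjusted p of 0.00209 (permutation test, unadjusted p = 1e-05, the smallest that 100000 permutations can give). Without the 2 animals farthest from the median in cortex, r was 0.84. Within the labelled genotypes it was 0.76 in 8 wild types, 0.81 in 7 Slc25a1 heterozygotes, 0.95 in 7 Mrpl40 heterozygotes and 0.84 in 7 double heterozygotes. Its r stayed between 0.81 and 0.87 when any 1 animal was left out, the lowest being without Mrpl40 heterozygote 5, which had 359 CPM in cortex and 409 CPM in hippocampus.

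**Figure D5:**
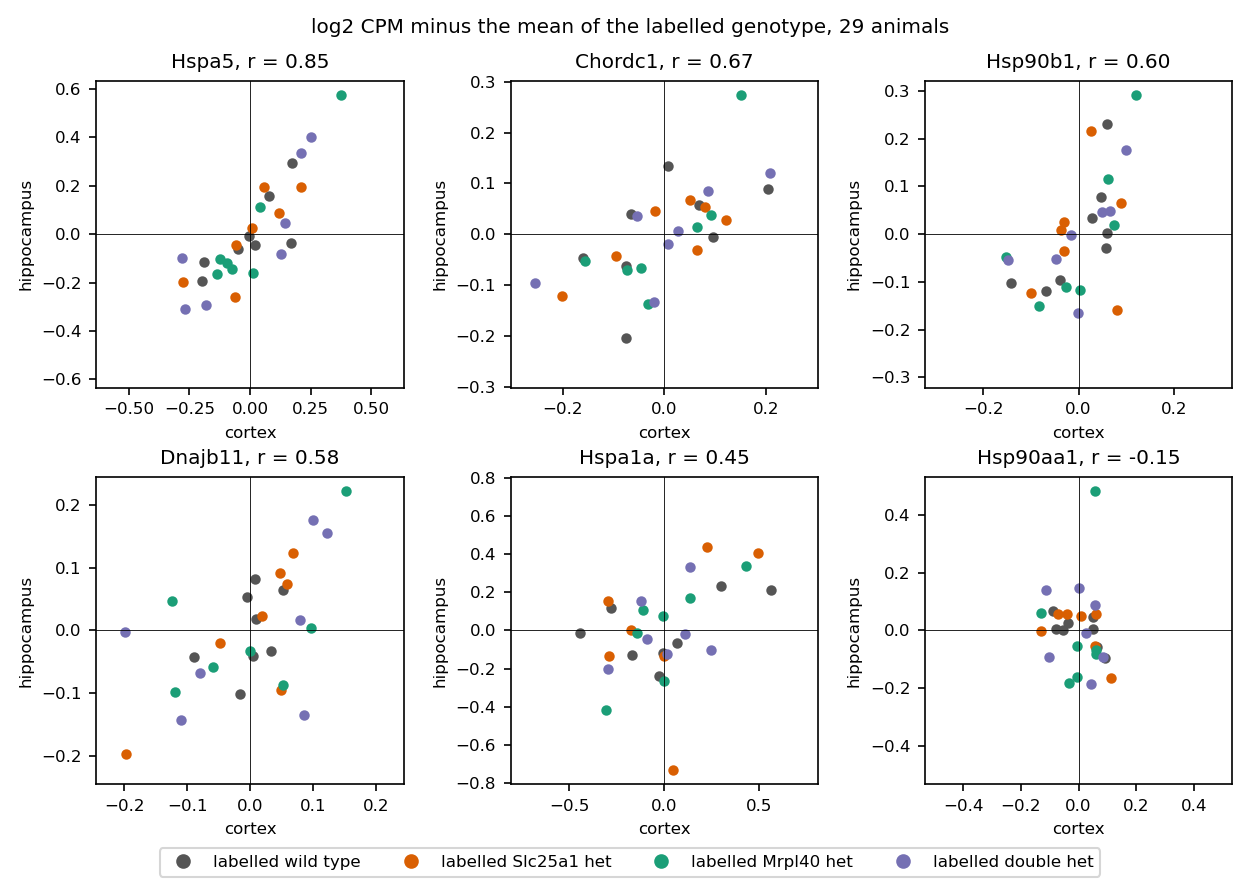
Level in hippocampus (y axis) against level in cortex (x axis) of 6 chaperone genes, both as log2 CPM centred on the labelled genotype, with 1 point for each of 29 animals. Hspa5 (r = 0.85) lies along a line, Chordc1 (0.67), Hsp90b1 (0.60) and Dnajb11 (0.58) are wider, and Hsp90aa1 (-0.15) shows no such line.

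Chordc1 had r = 0.67 (rho = 0.72, adjusted p = 0.0111, permutation test), and 0.64 without the 2 farthest animals. Hsp90b1, also known as GRP94, had r = 0.60 (rho = 0.60, adjusted p = 0.034) and 0.64 without the 2 farthest animals. Dnajb11 had r = 0.58 (rho = 0.54, adjusted p = 0.048) and 0.56 without them, and its r was 0.50 without Slc25a1 heterozygote 2. Dnajb11 did not pass without centring on the genotype (r = 0.54, adjusted p = 0.0863, permutation test) or without wild-type hippocampus library 8 (r = 0.58, adjusted p = 0.0507, permutation test). Without the 6 animals that went against their label, r was 0.82 for Hspa5, 0.64 for Chordc1, 0.55 for Hsp90b1 and 0.45 for Dnajb11, and 1 of the 4 still passed. Without the 3 hippocampus libraries high in other markers, r was 0.78, 0.63, 0.49 and 0.45, and 2 passed. The fourth ER gene, Hyou1 (0.47), and Hspa9 (0.50, adjusted p = 0.127) did not pass. The inducible Hspa1a had 0.45 (adjusted p = 0.19), and 0.34 without the 2 farthest animals. Of the Hsp110 factors, Hspa4l had 0.37 (adjusted p = 0.331, permutation test), Hsph1 0.30 and Hspa4 0.19, and none passed. Values near or below 0 were those of Hsp90ab1 (-0.02), Hsp90aa1 (-0.15), Dnajb1 (0.02) and Hspa2 (-0.28).

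The ER pattern reached past the 37 genes. Of 18 other ER chaperones and folding enzymes, 5 passed: Manf (0.83), Pdia4 (0.77), Pdia6 (0.76), Creld2 (0.73) and Calr (0.66). In the other chaperone lists fewer did, with Ptges3 (0.61) and Dnajb14 (0.68) among 45 cytosolic chaperones, Yme1l1 (0.63) among 14 mitochondrial ones, none of 14 TRiC and prefoldin genes and none of 7 heat shock factors and regulators. Outside the chaperones, 4 of 16 immediate early genes passed, with a median r of 0.39 over the list. The median was 0.34 over the 18 other ER chaperones and folding enzymes. Of 13 glucocorticoid-responsive genes (median 0.38), 3 passed, Zbtb16, Sgk1 and Ddit4, as did both cold-inducible genes, Cirbp (0.81) and Rbm3 (0.67). So did 2 of 5 blood markers, Hbb-bs (0.58) and Hbb-bt (0.59), with all 5 positive (median 0.49), the choroid plexus gene Ttr (0.67), the clock gene Per2 (0.67) and the microglia marker Aif1 (0.57). The labels do not record time of day, handling or the order of dissection, and these were not tested. The promoters of Hspa5 and Hsp90b1 are printed for comparison with those above, with the ER stress element (CCAAT and CCACG with any 9 bases between them, on either strand) in capitals. It was present in 2 of 29 genes with a window (6.9%), these 2, against 0.137% of all 27025 genes.
Hspa5, chr2:34771910-34772109, plus strand: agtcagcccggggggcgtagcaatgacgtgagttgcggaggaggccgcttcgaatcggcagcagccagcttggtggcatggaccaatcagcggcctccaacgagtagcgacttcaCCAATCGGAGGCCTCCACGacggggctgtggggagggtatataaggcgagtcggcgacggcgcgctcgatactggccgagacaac
Hsp90b1, chr10:86705425-86705674, minus strand: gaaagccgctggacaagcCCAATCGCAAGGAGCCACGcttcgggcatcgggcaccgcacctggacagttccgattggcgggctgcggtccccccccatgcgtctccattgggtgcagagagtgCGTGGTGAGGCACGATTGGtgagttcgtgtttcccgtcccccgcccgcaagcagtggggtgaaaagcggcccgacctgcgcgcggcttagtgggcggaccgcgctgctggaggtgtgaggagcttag
The window of Hspa5 holds 1 match, and that of Hsp90b1 holds 2, on opposite strands. Dnajb11 has a window without a match, and Chordc1 carries the heat shock element shown above and no ER stress element.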

How the data were processed

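Poly(A) RNA of cortex (30 libraries) and hippocampus (29 libraries) was sequenced after Qiazol and column clean-up, per the labels' protocols. The authors deposited raw counts per gene, with no normalization, and a table of normalized counts (a signal that equals the deposited count divided by 1 factor per library, to a relative range of 9.85e-10). FastQC, HISAT2, featureCounts and DESeq2 with the builds mm39 and GRCm39 are named without versions or settings, per the submitters' processing notes. No source used here states the strand setting or how reads with several matches were counted.

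Tests were run on the deposited counts with edgeR 4.0.16 (limma 3.58.1, R 4.3.3): TMM normalization, filterByExpr, robust quasi-likelihood test, Benjamini-Hochberg adjustment over all genes tested, threshold 0.05. Each tissue was fitted with its 4 labelled genotypes, and the tissue difference with the animal as a block. Columns without a sample numbered 0. Of the gene rows, 7074 carried an identifier without a symbol and 1.26% of the counts; they stayed in the library sizes and tests. CPM were computed on 1 TMM scale over all 59 libraries, and log2 CPM with a prior count of 2. Levels per kilobase used exon lengths of GENCODE vM21 on GRCm38, a build other than the authors', and promoters came from RefSeq on GRCm38.p6. Correlations used log2 CPM centred on the labelled genotype, and the cortex to hippocampus r was tested with 100000 permutations and adjusted over all 19466 genes, in place of the planned adjustment over the listed genes. Blastn 2.17.0 found near copies. Figures were drawn with matplotlib 3.10.9. Alternatives were DESeq2 1.42.0, its size factors in edgeR, the deposited normalized signal on a log2 scale with a pseudocount of 1, no filter, only the genotypes compared, a replicate block, and left-out animals or libraries. The scripts were tested on simulated data.

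The 37 genes and all gene lists were chosen with earlier results of these data known. Values by library were given for the inducible genes, the ER and mitochondrial genes, Fkbp5, Cryab and the 6 largest tissue differences in each direction past the test. Where none passed a genotype comparison, the 3 smallest p-values were named, and of other genes the 10 most like the inducible mean in each tissue, with at most 3 genes per list past the test, except that the TRiC, ER and other chaperone lists were described with up to 5, chosen after their values were seen. Of the 10 named for cortex, 1 is not reported here. No libraries of a group agreed within sampling noise (lowest chi-square per gene 3.49), so each counted as 1 sample. Same-animal libraries of the 2 tissues deviated together more than libraries of different animals (median r over genes 0.0729, from 0.0227 to 0.16, against -0.0049), and the labels name the animal. Depth limits the low genes: Hspb1 and Hspa1a rest on few reads per library.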

Additional observations from a re-analysis of the deposited data

Results flagged for a closer look

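Single libraries that stood apart from the rest of their group by Dixon's criterion were concentrated in 1 hippocampus library, that of Mrpl40 heterozygote 5. By this criterion it stood apart, as the highest of its 7, for 11 of the 22 genes examined by library. It had 182 CPM of Hspa4l (nearest library 145), 409 of Hspa5 (297), 1550 of Hspa8 (1280) and 1120 of Hsp90aa1 (835). It had 2330 CPM of Hsp90ab1 (1970), 489 of Hsph1 (389), 205 of Hspd1 (174) and 52.4 of Dnajb1 (44.5). It had 80.9 CPM of Dnajb2 (66.8), 101 of Chordc1 (85.4) and 70.7 of Cryab (45.8). The same library had the highest summed neuron markers of hippocampus (9907 CPM) and raised choroid plexus and ependymal markers (97.1 CPM), and their part was not tested. The cortex of the same animal was the highest of its group for Hspa5, at 359 CPM with the nearest at 284.

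The other libraries that stood apart came from several animals. In cortex, double heterozygote 4 had 267 CPM of Hspa9 (nearest 251), double heterozygote 2 had 80.2 CPM of Dnajb1 (72.2), and Mrpl40 heterozygote 2 had 33 CPM of Hspe1 (26.8). Mrpl40 heterozygote 7 was the lowest for Bag3 at 5.38 CPM (6.29) and the highest for Fkbp5 at 31.5 CPM (26.5), and Slc25a1 heterozygote 4 was the highest for Cryab at 73.6 CPM (49.9). In hippocampus, Mrpl40 heterozygote 6 had 20.5 CPM of Hspb8 (15.4) and double heterozygote 5 had 45.3 CPM of Dnajb1 (41.8). Over all 37 genes, 31 of 296 groups of libraries (10.5%) had such a library, where chance alone marks about 1 in 20, and genes that vary together are marked together.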

How the results depend on the processing

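The count of 25 genes past the tissue test stayed within 1.5 times under every alternative run, and was 19 (12 higher and 7 lower) with wild types alone. No alternative, including DESeq2, the replicate block and each left-out library or set of animals, gave a chaperone gene past the threshold in a genotype comparison, where the smallest adjusted p over all alternatives was 0.0784 (DESeq2, cortex, double heterozygotes against wild type). The replicate numbers are not an animal's identity across genotypes (median r of same-numbered libraries 0.0223 in cortex and 0.0172 in hippocampus, with 4 of 28 and 2 of 27 correlating best with their own number). With the replicate block, 5 in place of 12 genes had an unadjusted p under 0.05 in that comparison. The tissue fit with replicate block is the same fit as with the animal (25 genes).

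Genes near 0 in the tissue comparison changed sign. Without a filter Hspa4 had 0.0019 and Dnaja1 0.00013. With wild types alone Hsp90b1 had 0.038, Hspa4 0.044, Hsf1 -0.023, Hspa5 0.0024, Dnaja1 0.065, Dnajb6 0.013 and Fkbp4 0.040. Without the 6 animals against their label Hspa4 had 0.018 and Dnaja1 0.0020. Of these, Hsp90b1 alone had passed. The cause was not tested. Of 4 genes past the cortex to hippocampus test, 1 passed without the 6 animals (23 left) and 2 without the 3 hippocampus libraries (26 left), with fewer animals in both. Without centring, and without wild-type hippocampus library 8, 3 passed.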

Other observations

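Immediate early genes, which follow neuronal activity, were lower in hippocampus for 15 of 16 (median log2 difference -2.30), and 4 of the 16 passed the cortex to hippocampus test. Their summed level in cortex ranged from 1001 to 3580 CPM. In cortex of the labelled double heterozygotes, where 29 of 37 chaperones were positive, 15 of these 16 genes had a negative log2 difference (median -0.45) and none passed the test (edgeR, 2 with an unadjusted p under 0.05). In hippocampus of double against Slc25a1 heterozygotes, 15 of 16 were positive (median 0.18), again with none past the test (3 with an unadjusted p under 0.05). In cortex of double heterozygotes against wild type, C1qa, a complement gene of microglia, was the single gene of all the lists that passed a genotype test, at a log2 difference of -0.31 ± 0.0602 (adjusted p = 0.0262, edgeR). Of 14 TRiC and prefoldin genes, 14 had a negative log2 difference in hippocampus of the Slc25a1 heterozygotes against wild type (median -0.07), 5 of them with an unadjusted p under 0.05 and none past the test (edgeR).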
